A study of Mus musculus with 6 samples.

Results

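The pentose phosphate pathway enzymes were followed here in mouse Th17 cells, the helper T cells that make IL-17, cultured with or without the glucose analogue 2-deoxyglucose (2DG). The 10 genes were chosen by name, with earlier results of these data known. They are G6pdx, Pgls, Pgd and H6pd of the oxidative branch, Rpia, Rpe, Tkt and Taldo1 of the non-oxidative branch, and Shpk and Tigar, whose products bear on the supply of the pathway's substrates. Of the 23203 loci in the deposited table, 9 carried one of these symbols. The table lists Tigar under its RefSeq synonym 9630033F20Rik, which completed the 10.

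The 2DG group received 250 µM 2DG, which is used to inhibit glycolysis, and the Vehicle group received DMSO, with 3 libraries in each group. Both groups started from naive CD4 T cells kept for 48 h on plates coated with anti-CD3e at 10 µg/ml, with anti-CD28 at 1 µg/ml and the cytokines IL-23 at 10 ng/ml, IL-6 at 20 ng/ml and TGFb1 at 2.5 ng/ml, and their total RNA was sequenced. The strain, age and number of mice were not given in the sources used here. Nor do the labels tie replicates to separate animals or cultures, so a p-value here reflects spread among 3 libraries per group that may be only technical. The sample titles carry the numbers 17, 42 and 43, each in both groups, and the labels do not say what these mark. The question taken from the design is whether transcripts of the pathway, and the balance of its branches, differed between 2DG and Vehicle cultures.

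The pathway branches off from glycolysis at glucose 6-phosphate. Its oxidative branch, which is irreversible, makes NADPH, the reducing agent for lipid synthesis and antioxidant defence, and ends in ribulose 5-phosphate. Its non-oxidative branch interconverts sugar phosphates reversibly, linking ribose 5-phosphate, the precursor of nucleotides, with the glycolytic intermediates fructose 6-phosphate and glyceraldehyde 3-phosphate. Dividing lymphocytes draw on both products.

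The mouse genome holds a second glucose-6-phosphate dehydrogenase gene, G6pd2, an intronless copy of G6pdx known from testis, and the sequences of the pair are shown because they limit what a value for G6pdx can mean. The longest open reading frames were 1548 bases in G6pdx (chromosome X) and 1542 bases in G6pd2 (chromosome 5), and 94.8% of the 1542 aligned bases were identical in the GENCODE M21 transcripts. The first 80 coding bases of each follow, with the 6 differing bases in capitals.
G6pdx: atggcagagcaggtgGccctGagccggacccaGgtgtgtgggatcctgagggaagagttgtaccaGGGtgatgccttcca
G6pd2: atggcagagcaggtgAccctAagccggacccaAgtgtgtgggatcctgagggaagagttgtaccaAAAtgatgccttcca
Of the 50-base words in G6pd2 transcripts, 8.66% also occurred in G6pdx. How the authors' software divided such reads is not given in the sources used here, so both values are uncertain to that extent. G6pd2 had 4.45, 6.42 and 3.64 FPKM (sequenced fragments per kilobase, scaled to library size) in 2DG replicates 1 to 3, against 4.75, 5.66 and 4.36 FPKM in Vehicle replicates 1 to 3. Those groups overlapped, and the values were well under those of G6pdx in each library.

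The G6pdx promoter held the core of an antioxidant response element (TGACNNNGC on either strand), the motif bound by NRF2, a factor known to drive oxidative branch genes. The 29-base window is chrX:74428919-74428947 (GRCm38.p6 from RefSeq, minus strand of the chromosome, read along the gene). Its motif, on the strand opposite to the gene, starts 57 bases before the RefSeq start of the gene (position 74428880) and is in capitals. GENCODE M21 places the gene start 314 bases farther upstream, so by that annotation the window lies inside the gene, within 1 annotated exon.
G6pdx window: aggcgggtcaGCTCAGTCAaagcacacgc
All 10 members had a promoter sequence (250 bases before to 50 after the RefSeq gene start). The only other one with this core was that of Pgd, where the match started 3 bases past one of its listed starts. Over all 32851 promoter windows, 12.4% held it. The E-box CACGTG was in no window of a member and in 7.15% of all windows. Such matches describe letters in these windows and not binding.

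No enzyme of the pathway passed the test in either direction. With 2DG, 0 of the 9 tested members passed as higher and 0 as lower against Vehicle (limma on log2(FPKM + 1), Benjamini-Hochberg adjusted p under 0.05). Over the 10228 loci tested, whose means reached 1 FPKM, 1.53% were called higher and 1.19% lower, and 2.72% were called in all. At an unadjusted p under 0.05 there was 1 member, Taldo1, against a background of 17.9% of loci in either direction and 8.82% in that of Taldo1, lower with 2DG. Taldo1 was also the only member whose groups did not overlap, while 23.7% of loci had such groups (11.8% lower and 11.9% higher with 2DG).

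The intervals for the members were narrow. The 95% interval of the log2 fold change lay inside a 1.5-fold difference, which is 0.585 on the log2 scale, in both directions for 9 of 9 members, as it did for 74.2% of all tested loci. The lowest bound was -0.42, for Taldo1, and the highest was 0.30, for Rpe. These intervals are not adjusted for the number of members, and they hold on the scale of FPKM + 1, which understates the change of the lowest members.

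**Figure D1:**
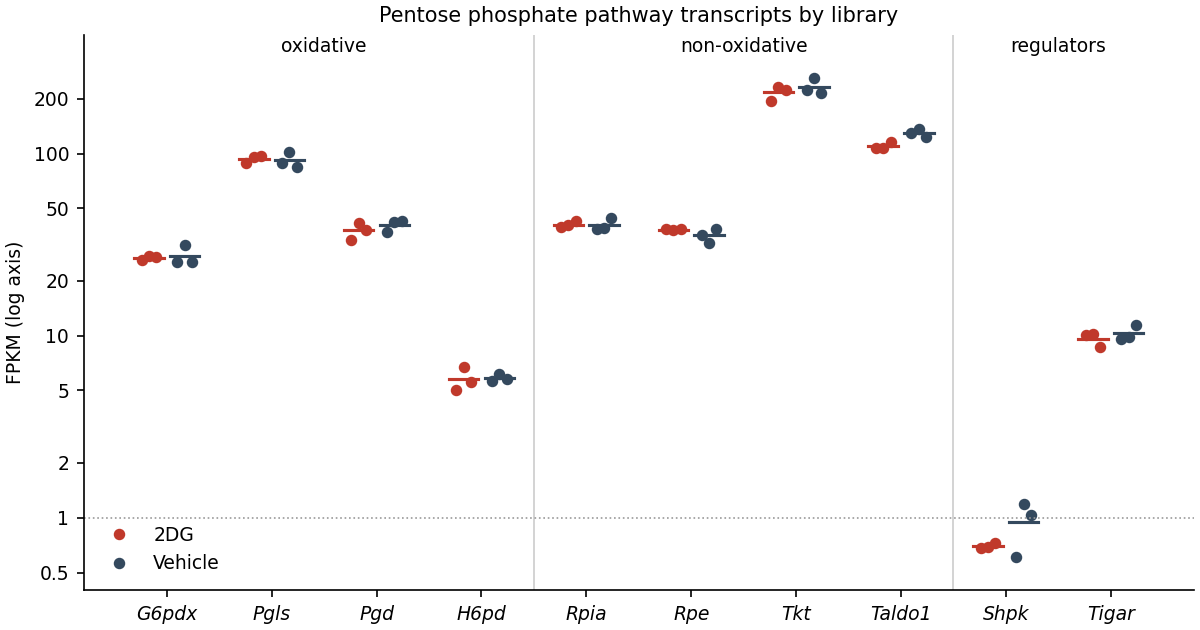
FPKM on a log axis for the 10 genes, with 1 point per library and a bar at each group mean (n = 3 per group); the dotted line marks the 1 FPKM filter. Points of the 2DG group lie among or beside those of the Vehicle group except for Taldo1, where 106.9 to 115 FPKM with 2DG stood under 124 to 137 FPKM with Vehicle.

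Transcripts of the oxidative branch were nearly level between the groups. G6pdx, which encodes the enzyme that commits glucose 6-phosphate to the pathway and makes its first NADPH (XLOC_022856, chromosome X, 74409483 to 74429194, GRCm38 in GENCODE M21), had 26.0, 27.4 and 27.1 FPKM in 2DG replicates 1 to 3, against 25.3, 31.7 and 25.3 FPKM in Vehicle replicates 1 to 3. Vehicle replicate 2 was the highest and the other 5 libraries lay close together, so the groups overlapped. On the log2 scale the fold change was -0.02 ± 0.10 (SE; 95% interval -0.26 to 0.22; limma adjusted p = 0.94). Without Vehicle replicate 2 it was 0.08 (adjusted p = 0.71). The gene overlaps Ikbkg on the opposite strand, with which it shared 10.6% of its 50-base words. The use of strand in the authors' counting is not given in the sources used here, so reads of the pair may be mixed. Ikbkg, which encodes a subunit of the NF-kB activating kinase, averaged 10.8 ± 0.691 FPKM with 2DG and 11.03 ± 0.601 FPKM with Vehicle (SD, n = 3 each).

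Pgls encodes 6-phosphogluconolactonase, the second step (XLOC_019954, chromosome 8, 71592176 to 71601092). It had 88.7, 95.8 and 97.5 FPKM with 2DG, against 88.4, 102.8 and 84.8 FPKM with Vehicle. The Vehicle libraries spanned the 2DG ones, and the log2 fold change was 0.03 ± 0.09 (SE; interval -0.19 to 0.26; limma adjusted p = 0.89). Its transcripts shared 18.9% of their 50-base words with the neighbouring Fam129c on the same strand, which was listed at 0.129 to 0.604 FPKM with 2DG and 0 to 0.297 FPKM with Vehicle.

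Pgd encodes 6-phosphogluconate dehydrogenase, which makes the second NADPH and releases CO2 (XLOC_014956, chromosome 4, 149149991 to 149166771). It had 33.7, 41.6 and 38.3 FPKM with 2DG, against 37.1, 42.1 and 42.7 FPKM with Vehicle. The lowest library was 2DG replicate 1 and the groups overlapped. This gave a log2 fold change of -0.10 ± 0.10 (SE; interval -0.34 to 0.14; limma adjusted p = 0.66).

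H6pd encodes the enzyme that carries out the first oxidative steps inside the endoplasmic reticulum, where it keeps a separate NADPH pool (XLOC_014965, chromosome 4, 149979475 to 150009023). It was the lowest enzyme of the branch, at 5.01, 6.75 and 5.57 FPKM with 2DG, against 5.65, 6.16 and 5.80 FPKM with Vehicle. Both the lowest and the highest of the 6 values were 2DG libraries. H6pd had a log2 fold change of -0.03 ± 0.12 (SE; interval -0.31 to 0.25; limma adjusted p = 0.94). The cytosolic enzyme's transcript was 4.07 to 5.20 times as abundant per length as the luminal one with 2DG, and 4.37 to 5.14 times with Vehicle.

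In the non-oxidative branch no enzyme passed either, and Taldo1 lay farthest from its Vehicle level. Rpia, for ribose 5-phosphate isomerase, which supplies the sugar of nucleotides (XLOC_017199, chromosome 6, 70765720 to 70792232), had 39.6, 40.3 and 42.4 FPKM with 2DG, against 38.5, 39.3 and 44.2 FPKM with Vehicle. Vehicle libraries held both the lowest and the highest value, so the groups overlapped. The log2 fold change was 0.01 ± 0.08 (SE; interval -0.19 to 0.20; limma adjusted p = 0.99), and its sign depended on the scaling, at -0.01 with equal medians. This was the smallest difference among the 9 members. Rpe, for ribulose 5-phosphate epimerase, which leads pentoses back toward glycolysis (XLOC_000168, chromosome 1, 66700831 to 66719805), had 38.5, 37.9 and 38.5 FPKM with 2DG, against 35.7, 32.5 and 38.8 FPKM with Vehicle. Vehicle replicate 3 lay above all 2DG libraries, so the groups overlapped. Rpe had a log2 fold change of 0.10 ± 0.08 (SE; interval -0.09 to 0.30; limma adjusted p = 0.57). Rpe shared 15.4% of its 50-base words with Kansl1l on the opposite strand, whose own level was 1.65 ± 0.217 FPKM with 2DG and 1.14 ± 0.256 FPKM with Vehicle (SD, n = 3 each).

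Tkt encodes transketolase, which moves carbon units between sugar phosphates with thiamine pyrophosphate as its cofactor. Its locus (XLOC_005838, chromosome 14, 30548359 to 30574720) also names the microRNA gene Mir3076, a hairpin of 60 bases of which at most 1 base lies in an exon of Tkt, so the deposited value covers both genes. How much of that value the hairpin holds was not tested, and this limits each rank, sum and ratio given for Tkt below. The locus was at 193.9, 234 and 223 FPKM with 2DG, against 224, 259.9 and 217 FPKM with Vehicle. The lowest library was 2DG replicate 1, the highest Vehicle replicate 2, and the others were interleaved. The log2 fold change was -0.11 ± 0.11 (SE; interval -0.36 to 0.15; limma adjusted p = 0.67).

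Taldo1 encodes transaldolase, the other carbon-transferring enzyme of the branch (XLOC_018526, chromosome 7, 141392199 to 141402968). It had 106.9, 107 and 115 FPKM with 2DG, against 129, 137 and 124 FPKM with Vehicle. Each 2DG library stood under each Vehicle library. The means were 109.8 ± 4.76 FPKM with 2DG and 130.04 ± 6.46 FPKM with Vehicle (SD, n = 3 each), a difference of -15.6%. The log2 fold change was -0.24 ± 0.08 (SE; interval -0.42 to -0.06), which did not pass over all loci (limma adjusted p = 0.16; 0.13 to 0.93 over the alternatives). Smaller p-values were found at 9.41% of tested loci. The exact two-sided permutation test gave p = 0.1, the smallest that 3 against 3 libraries allow. In bulk RNA, fewer cells with a transcript and less of it per cell cannot be told apart. The processed pseudogene Gm17823 on chromosome 10 shared 6.67% of the 50-base words of Taldo1, and the share of reads this concerns was not tested.

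**Figure D2:**
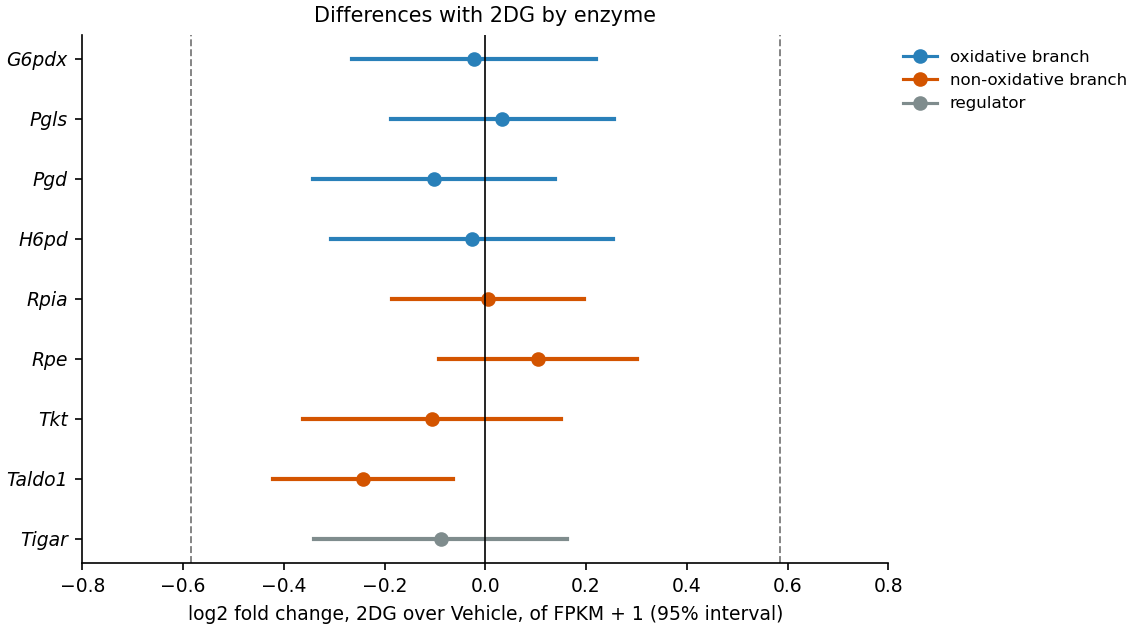
Log2 fold change of FPKM + 1, 2DG over Vehicle, for the 9 tested members, with 95% intervals from limma (n = 3 per group) and dashed lines at 1.5-fold either way. The estimates run from -0.24 for Taldo1 to 0.10 for Rpe, and no interval reaches a dashed line.

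The regulators were, with H6pd, the least abundant of the 10 transcripts. Tigar, whose product lowers fructose 2,6-bisphosphate and so can turn hexose phosphates toward the pathway (XLOC_017451, chromosome 6, 127085116 to 127109557), had 10.1, 10.2 and 8.64 FPKM with 2DG, against 9.61, 9.86 and 11.5 FPKM with Vehicle. The groups overlapped, with 2DG replicate 3 the lowest and Vehicle replicate 3 the highest. The log2 fold change was -0.09 ± 0.11 (SE; interval -0.34 to 0.16; limma adjusted p = 0.72). Shpk, for sedoheptulokinase, which makes sedoheptulose 7-phosphate (XLOC_002749, chromosome 11, 73199460 to 73224511), had 0.678, 0.694 and 0.730 FPKM with 2DG, against 0.608, 1.19 and 1.04 FPKM with Vehicle. The lowest of the 6 was Vehicle replicate 1. Its mean over the libraries, 0.822 FPKM, was under the 1 FPKM filter, so it was not tested. In a fit without the filter its log2 fold change was -0.18 ± 0.12 (SE, limma adjusted p = 0.59), and the exact two-sided permutation test gave p = 0.4 (n = 3 each). The authors' table gave it the status NOTEST, and OK for the other 9.

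The order of transcript levels was nearly fixed. In each of the 6 libraries Tkt stood at rank 1, Taldo1 at rank 2, Pgls at rank 3, G6pdx at rank 7, Tigar at rank 8, H6pd at rank 9 and Shpk at rank 10, by FPKM, which is per length. Over the 6 libraries Tkt ran from 193.9 to 259.9 FPKM, Taldo1 from 106.9 to 137 FPKM and Pgls from 84.8 to 103 FPKM, and these ranges did not meet. Rpia, Pgd and Rpe, with means of 40.7, 39.3 and 37.0 FPKM, overlapped in range and exchanged places between libraries. Tkt lay at the 97.7th percentile of tested loci outside small RNA genes, Taldo1 at the 94.0th, G6pdx at the 69.2nd and H6pd at the 26.0th. The gene of the committing step was one of the less abundant transcripts of the pathway, at 26.9 ± 0.741 FPKM with 2DG and 27.4 ± 3.65 FPKM with Vehicle (SD, n = 3 each).

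Set against each other, the branches differed little. The median log2 fold change was -0.02 over the 4 oxidative enzymes and -0.05 over the 4 non-oxidative ones, beside -0.01 over all tested loci. The oxidative enzymes summed to 153, 172 and 168 FPKM in 2DG replicates 1 to 3, against 156, 183 and 159 FPKM in Vehicle replicates 1 to 3. The non-oxidative enzymes summed to 379, 419 and 419 FPKM with 2DG, against 427, 468 and 423 FPKM with Vehicle. The oxidative sums overlapped between the groups. The non-oxidative ones did not, but 2DG replicate 3 (419 FPKM) and Vehicle replicate 3 (423 FPKM) lay close together. Taldo1 was the only enzyme of that branch whose own groups did not overlap.

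As a share of the 8 enzymes' summed FPKM, the oxidative branch held 28.8%, 29.1% and 28.7% with 2DG, against 26.8%, 28.1% and 27.3% with Vehicle. All 3 shares with 2DG were above those with Vehicle, with means of 28.9 ± 0.196% with 2DG and 27.4 ± 0.635% with Vehicle (SD, n = 3 each). The share is a score over chosen members that Tkt and Taldo1 dominate, so it was not tested. Without Taldo1, a sum looked at after the values were seen, it was 35.5% to 36.1% with 2DG and 34.4% to 35.5% with Vehicle. These groups overlapped only through 2DG replicate 2 (35.50%) and Vehicle replicate 2 (35.52%), and the means were 35.7% with 2DG and 34.9% with Vehicle. Without Tkt the share was 45.3% to 48.1% with 2DG and 43.4% to 46.7% with Vehicle, which overlapped too. The ratio of Tkt to Taldo1 was 1.81, 2.18 and 1.93 with 2DG, against 1.73, 1.90 and 1.75 with Vehicle, which also overlapped.

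**Figure D3:**
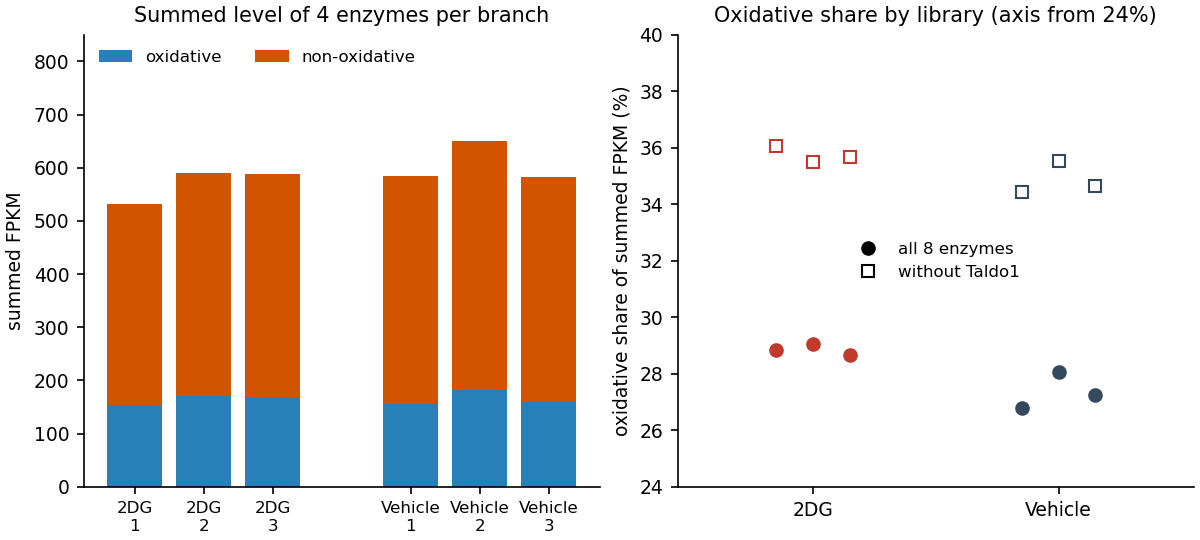
Left, summed FPKM of the 4 oxidative and 4 non-oxidative enzymes in each library; right, the oxidative share of that sum by library, with all 8 enzymes (filled circles) and without Taldo1 (open squares), on an axis that starts at 24%. With all 8 enzymes the 2DG libraries (28.7% to 29.1%) sit above the Vehicle libraries (26.8% to 28.1%). Without Taldo1 the groups overlap only through 2DG replicate 2 and Vehicle replicate 2.

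Spread within a group differed between members. The coefficient of variation was 2.76% with 2DG and 13.3% with Vehicle for G6pdx, 0.914% with 2DG and 8.83% with Vehicle for Rpe, and 15.4% with 2DG and 4.52% with Vehicle for H6pd, with 3 libraries behind each value. Vehicle replicate 2 was the highest of the 6 libraries for G6pdx, Pgls, Tkt, Taldo1 and Shpk. It was the highest for 27.4% of all tested loci, and its rough relative depth was the lowest, 0.415 of that of Vehicle replicate 1. The part of this library in the differences was not tested beyond leaving it out, which gave Taldo1 -0.21, Tkt -0.03 and Pgls 0.12 on the log2 scale, with no member called.

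By Pearson's r of log2(FPKM + 1) over the 6 libraries, the loci most like G6pdx among 9909 single-gene loci were Tsc22d3 (r = 0.991), Apobec3 (0.986) and Dync1li1 (0.982). Those most like the Tkt locus among 9910 were Mars (0.998), Atp5l (0.993) and Trabd (0.991). With 6 libraries, and so many loci searched, such values are descriptions that share each library's depth and scaling. Among the members, the closest pair was G6pdx and Pgls (r = 0.904).

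Libraries of the same group correlated with r of 0.982 to 0.989 over tested loci that are not small RNA genes, against 0.969 to 0.981 between the groups. Only relative depth could be read from the values, roughly, from 0.415 for Vehicle replicate 2 to 1.11 for 2DG replicate 1 with Vehicle replicate 1 set to 1. Both replicate 1 libraries listed the ribosomal RNA precursor Rn45s, at 7186 FPKM with 2DG and 12874 FPKM with Vehicle, while the other 4 listed it at 0. Defining markers matched the labelled cells: 6 of 7 Th17 genes passed 1 FPKM, with sums of 2371 to 3091 FPKM with 2DG and 1730 to 2008 FPKM with Vehicle, and 6 matched CD4 T cell genes summed to 824 to 984 FPKM with 2DG and 799 to 948 FPKM with Vehicle. Markers of B cells summed to at most 2.25 FPKM with 2DG and 3.71 FPKM with Vehicle, those of myeloid cells to at most 3.25 FPKM with 2DG and 4.60 FPKM with Vehicle, and those of CD8 T and NK cells to at most 5.51 FPKM with 2DG and 3.31 FPKM with Vehicle. The erythroid sums reached 0.184 FPKM with 2DG and 0.256 FPKM with Vehicle, and the globin loci were listed at 0 in all libraries. A low or 0 value in this table can be a failed estimate, since the glycolytic gene Gapdh stood at only 0.473 to 0.924 FPKM with 2DG and 0.135 to 1.12 FPKM with Vehicle, so the 0 values are given only as listed. The Th17 sums were higher with 2DG in every library, and their part in the values of the pathway was not tested.

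Of the linked gene lists, 1 held called genes, that of other NADPH producers. There 2 of 10 tested genes rose and 0 fell, beside 1.53% of all tested loci called higher and 1.19% called lower. The list was chosen by gene name with earlier results of these data known, so its counts beside the background are only a description. Whether each product makes NADPH in these cells was not tested. Mthfd2, for a mitochondrial folate dehydrogenase, had 141, 148 and 146 FPKM with 2DG, against 106, 91.4 and 89.8 FPKM with Vehicle. Its log2 fold change was 0.60 ± 0.09 (SE, limma adjusted p = 0.018). Aldh1l2, for the mitochondrial folate enzyme that makes NADPH while releasing formate carbon as CO2, had 1.45, 3.32 and 2.55 FPKM with 2DG, against 0.526, 0.438 and 0.400 FPKM with Vehicle, and rose by 1.20 ± 0.22 on the log2 scale (SE, limma adjusted p = 0.041). At these low levels the added 1 FPKM shrinks the change, which was 2.13 with a pseudocount of 0.1, and the ratio of mean FPKM was 5.36. Both had groups that did not overlap. Aldh1l2 passed the 1 FPKM filter only through its 2DG libraries, since its Vehicle mean was 0.455 FPKM. Without the filter it was not called (limma adjusted p = 0.070). Mthfd2 lost its call without any single library but Vehicle replicate 1, and Aldh1l2 without any but 2DG replicate 1 (adjusted p up to 0.073 and 0.12). In a fit with the replicate number as a block, neither was called (limma adjusted p = 0.064 for Mthfd2 and 0.092 for Aldh1l2). With libraries scaled to equal sums, Mthfd2 was not called (limma adjusted p = 0.23). The median of the list was -0.01. Of the tested genes for isocitrate dehydrogenase, malic enzyme and NAD kinase (Idh1, Idh2, Me2, Nadk and Nadk2), none passed. The 2 of these whose groups did not overlap, named after their values were seen, were both lower with 2DG. Me2, for a mitochondrial malic enzyme, had 169, 193 and 185 FPKM with 2DG, against 221, 291 and 249.6 FPKM with Vehicle (log2 fold change -0.47 ± 0.12 SE, limma adjusted p = 0.092). Idh1, for cytosolic isocitrate dehydrogenase, had 6.90, 7.51 and 7.67 FPKM with 2DG, against 10.1, 8.65 and 8.87 FPKM with Vehicle (-0.29 ± 0.10, limma adjusted p = 0.18). Me1, Me3 and Aldh1l1 lay under the 1 FPKM filter and were not tested.

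The remaining linked lists held no called gene, as 0 higher and 0 lower of 7 tested paralogs and side enzymes, 8 ribose phosphate users, 11 NADPH users, 9 shared glycolytic steps, 4 fructose 2,6-bisphosphate enzymes and 11 transcription factors (limma). At an unadjusted p under 0.05 these lists held 1, 2, 2, 0, 0 and 3 genes in the same order, beside 17.9% of all tested loci. Their median log2 fold changes were -0.04, -0.06, -0.14, 0.07, 0.17 and -0.03, beside -0.01 over all loci.

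The groups were also separate for some uncalled genes, beside the 23.7% of all tested loci without overlap. Prps2, whose product turns ribose 5-phosphate into the activated ribose of nucleotide synthesis, had 50.6, 47.1 and 45.3 FPKM with 2DG, against 34.2, 39.9 and 39.6 FPKM with Vehicle (log2 fold change 0.33 ± 0.09 SE, limma adjusted p = 0.12). In the same list Prpsap1 and Prpsap2, named after their values were seen, also had separate groups but were lower with 2DG. Their log2 fold changes were -0.15 and -0.15 (limma adjusted p = 0.36 and 0.39). Prps1, also named afterwards, overlapped and was at -0.11 (limma adjusted p = 0.64). Pgm1, of the phosphoglucomutase family, had 10.8, 11.2 and 11.5 FPKM with 2DG, against 15.7, 12.4 and 15.5 FPKM with Vehicle (-0.35 ± 0.11, limma adjusted p = 0.15). Txnrd1, for thioredoxin reductase, which spends NADPH, had 70.2, 64.4 and 68.9 FPKM with 2DG, against 82.7, 75.8 and 85.02 FPKM with Vehicle (-0.26 ± 0.08, limma adjusted p = 0.15). Dhcr7, of the last step of cholesterol synthesis, had 8.92 to 9.22 FPKM with 2DG and 10.3 to 13.5 FPKM with Vehicle (-0.41 ± 0.11, limma adjusted p = 0.12).

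Among the 11 factors, the 2 of smallest p also had groups that did not overlap. So did Atf4 and Trp53, higher with 2DG, and Srebf2, lower, all named after their values were seen. Atf4 had 230, 290 and 203 FPKM with 2DG, against 177, 196 and 187 FPKM with Vehicle (log2 fold change 0.35 ± 0.13 SE, limma adjusted p = 0.23). Trp53 and Srebf2 were at 0.10 and -0.20 (limma adjusted p = 0.54 and 0.30). Nfe2l2, which encodes NRF2, had 11.5, 12.9 and 14.7 FPKM with 2DG, against 16.2, 16.7 and 18.5 FPKM with Vehicle (log2 fold change -0.37 ± 0.11 SE, limma adjusted p = 0.13). Bach1, which encodes a repressor at the same response elements, had 4.16 to 4.26 FPKM with 2DG and 2.71 to 3.47 FPKM with Vehicle (0.39 ± 0.11, limma adjusted p = 0.13). G6pdx and Pgd, the members with the core motif described above, were at -0.02 and -0.10 in the same fit. A link between these factors and the members was not tested.

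The groups overlapped for the other named genes. Rbks, for ribokinase, ranged from 3.31 to 4.34 FPKM with 2DG and 4.22 to 8.73 FPKM with Vehicle, and Dcxr, for L-xylulose reductase, from 2.95 to 4.48 FPKM with 2DG and 3.55 to 6.92 FPKM with Vehicle (limma adjusted p = 0.27 and 0.31). Pfkm and Pfkp, subunit genes of phosphofructokinase, had log2 fold changes of -0.28 and 0.23 (limma adjusted p = 0.52 and 0.56). Pfkfb3 and Pfkfb2, whose products make the fructose 2,6-bisphosphate that the Tigar product removes, had 0.40 and 0.22 (limma adjusted p = 0.30 and 0.47). The transketolase-like genes, named after their values were seen, were listed at 0 in all libraries for Tktl2 and in all but 2DG replicate 3 (0.109 FPKM) for Tktl1.

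**Figure D4:**
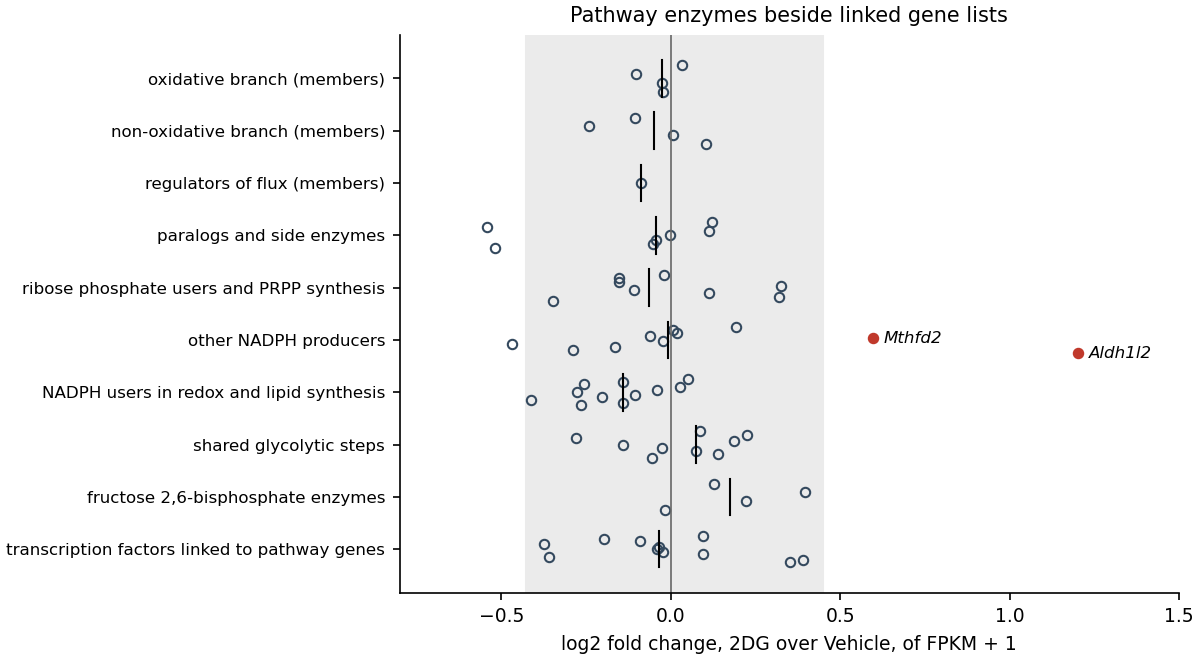
Log2 fold change of FPKM + 1, 2DG over Vehicle, for each tested gene of the pathway and of the linked lists, with a bar at each list's median and the range from the 5th to the 95th percentile of all tested loci shaded (-0.43 to 0.45). Filled points passed the test, which were Mthfd2 and Aldh1l2. Aldh1l2 passed the 1 FPKM filter only through its 2DG libraries and was not called without the filter (limma adjusted p = 0.070). The pathway's own genes all lie inside the shaded range.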

How the data were processed

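The authors deposited 1 table of FPKM per locus and library. The mm10 build, Cuffdiff 2.2.1.3, Cuffnorm 2.2.1.1, Cufflinks 2.2.1.0 and TopHat2 2.1.0 are named per the submitters' processing notes, without settings, annotation or use of strand. Library totals ran from 1469420 to 1958739 FPKM, and absolute depth is unknown. Small RNA genes held 69.8% to 76.1% of these totals, so scaling to equal sums rests mostly on them. FPKM are not counts, so limma 3.58.1 in R 4.3.3 (group term, eBayes with trend, two-sided, Benjamini-Hochberg over 10228 loci) was fitted to log2(FPKM + 1), with a minimum mean of 1 FPKM. Coordinates and 50-base words come from GENCODE M21, promoters from RefSeq GRCm38.p6, and alignment used Biopython 1.88. Relative depth came from the commonest ratio of low values (0.002 to 0.3 FPKM). Members and gene lists were chosen with earlier results of these data known. Named genes are all members, the called genes of each linked list or else its 2 of smallest p, and the 3 loci most like G6pdx and Tkt. The alternatives left out each library in turn and varied pseudocount, filter, scaling, eBayes and the replicate block.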

Additional observations from a re-analysis of the deposited data

How the results depend on the processing

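No member was called higher or lower in any of the 18 alternatives (lowest adjusted p 0.13, Taldo1 with equal medians). All 9 tested members kept an interval inside 1.5-fold except Taldo1 with equal sums, where the lower bound was -0.62. Without each library in turn the log2 fold change ran from -0.074 to 0.081 for G6pdx, -0.022 to 0.12 for Pgls, -0.13 to 0.056 for H6pd, -0.031 to 0.065 for Rpia and -0.23 to 0.11 for G6pd2, each crossing 0, and without crossing 0 from -0.17 to -0.023 for Pgd, 0.041 to 0.17 for Rpe, -0.16 to -0.026 for Tkt, -0.13 to -0.015 for Tigar and -0.28 to -0.21 for Taldo1. The cause was not tested. Rpia was also at -0.014 with equal medians, -0.0012 with quantile normalization and -0.011 with replicates 2 and 3 only, where H6pd was at 0.032. The oxidative median ran from -0.083 to 0.042 and the non-oxidative one from -0.083 to -0.0010 with 1 library left out.

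Counts over all loci, 156 higher and 122 lower, were 95 and 62 with equal sums, 100 and 65 without a filter, 247 and 199 with robust eBayes, and 52 to 98 and 25 to 69 without each library. Chosen after seeing the data, replicates 2 and 3 only gave 43 and 28, and leaving out small RNA genes 262 and 214. The replicate block gave 57 and 44 and called no member. Mthfd2 and Aldh1l2, of the other NADPH producers, lost their calls with it (limma adjusted p = 0.064 and 0.092). However, same-numbered libraries (17, 42 and 43 in the titles) did not all deviate together over tested loci (r = -0.05, 0.19 and -0.11). The numbers were therefore not taken as pairs. Both replicate 1 libraries nevertheless share the listed Rn45s and the lowest sums (1471759 FPKM with 2DG and 1469420 FPKM with Vehicle). Mthfd2 was also not called with equal sums (adjusted p = 0.23), nor Aldh1l2 without a filter (0.070). Absolute depth is unknown, so how far it limits Shpk, which lay under the filter, could not be given.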
